A study of Rattus norvegicus with 24 samples.

Results

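The strain difference in the kidney late in pregnancy was read from all genes of the RNA-seq count table by setting 3 Brown Norway (BN) against 3 Sprague Dawley (CD) libraries at pregnancy day 18 (BN-P18 and CD-P18). These are 6 of the 12 RNA-seq and 24 total libraries of the series. The other 6 RNA-seq libraries come from age-matched non-pregnant (NP) rats, 3 of each strain, and served here as a second, separate pair of strain groups. Every library was made from a frozen kidney cross-section of 1 female rat of about 2 months of age (the labels also give 6 to 8 weeks), bought from a commercial breeder and fed standard chow. Pregnancy was the one treatment named for any group. CD is an outbred stock and BN an inbred strain, so rats of the first may also differ from each other in genotype. Each section was about 2/3 cortex and 1/3 medulla, so the values are averages over all cell types, and fewer cells of a type cannot be told apart from less RNA per cell. Of 32883 genes in the table, 14212 passed the filter on low counts and were tested, and 2926 of these carry a gene symbol here. The table lists identifiers only, and symbols were inferred by matching values to the study's gene table, so each gene name rests on that match.

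The kidney filters plasma in the glomerulus and then recovers salt, glucose, phosphate and amino acids along the tubule. In pregnancy the renal vessels dilate, filtration and plasma volume rise and salt is retained. The proximal tubule also takes up and metabolises drugs, steroids and fatty acids with cytochromes P450, flavin monooxygenases, carboxylesterases and conjugating enzymes, families in which rodent strains are known to differ. Class I histocompatibility genes (RT1 in the rat) are among the most variable genes between strains.

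The 6 P18 libraries held 8867274 to 11879451 reads on genes, and between 13597 and 13821 genes reached 1 CPM (reads of a gene scaled to the library total) in each. For the CPM values of genes given below, the library total was also multiplied by its TMM scaling factor. Defining transcripts of the nephron were present in all 6, among them the glucose transporter Slc5a2 of the proximal tubule (147 to 203 CPM in CD-P18, 86.4 to 123 CPM in BN-P18), the sodium chloride cotransporter Slc12a3 of the distal tubule (602 to 642 and 761 to 852 CPM) and nephrin, Nphs1, of the podocyte (73.3 to 79.6 and 76.7 to 91.1 CPM). Libraries of the same strain differed by 0.377 to 0.438 (root mean square, log2 scale) over all tested genes and libraries of different strains by 0.537 to 0.595. The first principal component held 50.1% of the variance and separated the strains, and no P18 library stood among those of the other strain.

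At P18, 1365 genes differed between the strains in the quasi-likelihood test of edgeR, with adjusted p (Benjamini-Hochberg) below 0.1 and a log2 fold change past 0.32 in either direction (differentially expressed genes, DEGs). That is 9.60% of the genes tested. Of these DEGs, 697 were higher in BN-P18 (4.90% of tested genes) and 668 were lower (4.70%). Their median fold was 1.6 in the genes higher in BN and 1.57 in the genes lower in BN, so most strain differences were modest. A fold over 2 was reached by 210 higher and 197 lower genes, and a fold over 4 by 63 and 84. In 662 of the 697 and 634 of the 668 DEGs the 3 BN values lay wholly above or below the 3 CD values; over all tested genes such non-overlap was found in 26.5%, with BN above in 13.1% and below in 13.4%. The median log2 fold change over all tested genes was 0.0053. Log2 fold changes are BN over CD throughout, so negative values are lower in BN, and rose and fell are used from CD-P18 to BN-P18, which are different rats. At the edge of the threshold, Ptpre (adjusted p = 0.0998) was just inside and Kat14 (adjusted p = 0.1003) just outside by edgeR.

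**Figure D1:**
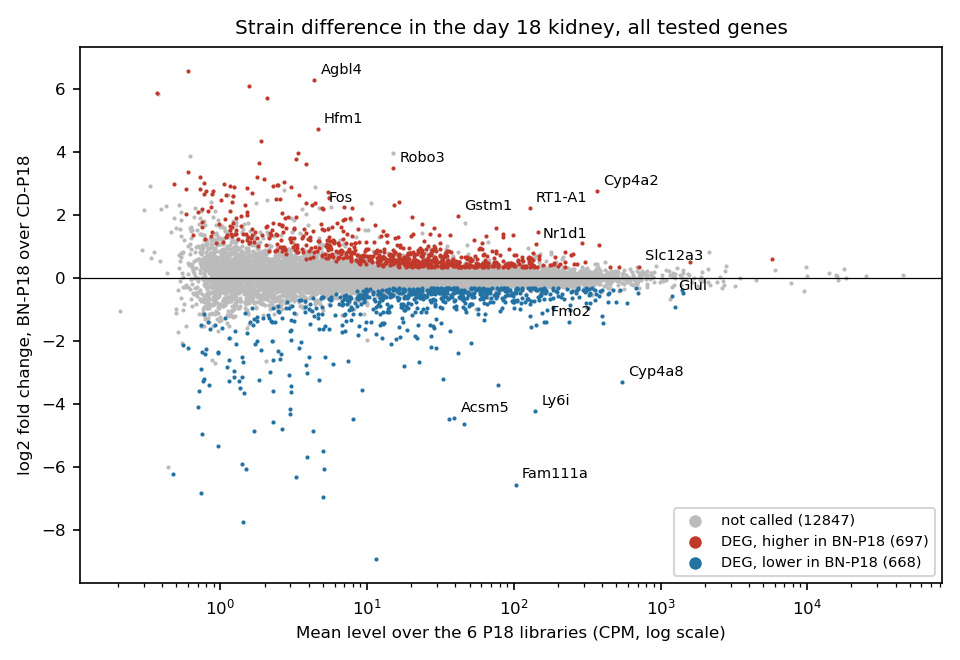
The plot of fold change by level shows each tested gene at its mean level over the 6 P18 libraries (CPM, log scale) and its log2 fold change of BN-P18 over CD-P18, with the 697 DEGs higher in BN in red, the 668 lower in BN in blue and 12847 genes not called in grey. Calls lie on both sides over most of the range of levels, with Cyp4a2 and Cyp4a8 as large differences at high level.

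The largest differences were close to presence against absence. Agbl4, a carboxypeptidase that trims glutamates from tubulin, had 0, 1 and 2 reads in the CD-P18 libraries against 101, 77 and 75 in BN-P18. Ribc2, a protein of the ciliary axoneme, had 70, 60 and 66 reads in CD-P18 against 1, 0 and 1 in BN-P18. Fitted folds of such genes depend on the prior count and are not given. Hfm1, a helicase of meiotic recombination, stood at 0.171, 0.331 and 0.51 CPM in CD-P18 and at 8.7, 9.94 and 7.97 CPM in BN-P18 (log2 fold change 4.70 ± 0.40 (SE, n = 3 rats a group), edgeR adjusted p = 1.35e-05). The groups were far apart in all of these genes and no library crossed over.

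Among genes of higher level, Fam111a, a serine protease that limits viral replication, was low in BN-P18 (1.5, 2.19 and 2.66 CPM) and abundant in CD-P18 (245, 111 and 254 CPM). Its log2 fold change was -6.58 ± 0.97 (edgeR adjusted p = 0.000988). Acsm5, a mitochondrial acyl-CoA synthetase that prepares benzoate-like acids for conjugation with glycine, had 74.6, 68.7 and 82 CPM in CD-P18 and 5.04, 3.1 and 2.02 CPM in BN-P18 (-4.47 ± 0.30 on the log2 scale, edgeR adjusted p = 1.51e-06). Ly6i, of the LY6 family of surface proteins, fell from 219.5, 190.2 and 385 CPM in CD-P18 to 13.8, 16 and 12.1 CPM in BN-P18 (log2 fold change -4.24 ± 0.28, edgeR adjusted p = 1.51e-06). Coch (cochlin, an extracellular matrix protein) and Galnt13 (a glycosyltransferase) were also lower, at -4.48 and -4.32 on the log2 scale. In the other direction, Robo3, an axon guidance receptor, rose from 1.63, 2.31 and 3.57 to 32.5, 22.4 and 27.9 CPM (3.47 ± 0.34, edgeR adjusted p = 4.67e-05), and Sptlc3, a subunit of serine palmitoyltransferase, from 0.343, 0.661 and 0.204 to 5.37, 5.92 and 7.76 CPM (3.97 ± 0.57, edgeR adjusted p = 0.000878). Rbm46, an RNA-binding protein of germ cells, was higher in BN by 2.71. Each of the genes named here, Agbl4 and Ribc2 included, differed in the same direction in the non-pregnant rats, with NP log2 fold changes from -6.09 (Fam111a) to 4.79 (Hfm1) where a fold is given.

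Some strain differences were very even over the rats. B4galt6, a galactosyltransferase of lactosylceramide synthesis, had 126, 125 and 124 CPM in CD-P18 and 70.8, 73.3 and 74 CPM in BN-P18, a log2 fold change of -0.78 ± 0.06 (edgeR adjusted p = 2.42e-06). Rtel1, a helicase that protects telomeres, had 56, 56.6 and 56.8 CPM and 14.7, 20.5 and 17 CPM in the same order (-1.69 ± 0.12, edgeR adjusted p = 2.05e-06). Vars, the valyl-tRNA synthetase, rose from 41.8, 44.2 and 40.4 to 77.7, 81.6 and 75.5 CPM (0.89 ± 0.08, edgeR adjusted p = 1.34e-05). The spread within each strain was a small fraction of the difference in these genes. Rpl6, a ribosomal protein with many near-identical retrocopies, was also higher in BN-P18 (0.91 ± 0.07, edgeR adjusted p = 4.58e-06), and reads may have been split between copies there.

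Enzymes of drug and fatty acid metabolism gave some of the largest differences by level. Cyp4a2 and Cyp4a8 are cytochromes P450 of the family that hydroxylates fatty acids, arachidonic acid included. Cyp4a2 had 81.4, 160.5 and 45.9 CPM in CD-P18 and 751, 462 and 718 CPM in BN-P18 (log2 fold change 2.75 ± 0.34, edgeR adjusted p = 0.000292). Cyp4a8 ran the other way, with 782, 1491 and 687 CPM in CD-P18 and 102, 90.9 and 106 CPM in BN-P18 (-3.31 ± 0.25, edgeR adjusted p = 4.58e-06). CD-P18 replicate 2 was highest of its group for both, and neither pair of groups overlapped. The NP rats gave 2.58 ± 0.33 and -2.90 ± 0.25 for the same genes. Members of the Cyp4a family are near-identical in places, so their counts are uncertain.

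Of 19 phase I drug metabolism genes with a symbol, 10 were lower in BN-P18, 2 were higher and 7 were not called; over all 2926 genes with a symbol 19.8% were lower and 20.6% higher. The median log2 fold change of the list was -0.415, against -0.0123 over genes with a symbol. These shares need that background because symbols were available mainly for genes that differed in some comparison. Cyp1a1, which oxidises polycyclic aromatic compounds and is induced by the aryl hydrocarbon receptor, had 45, 60.4 and 102 CPM in CD-P18 against 1.4, 3.65 and 4.04 CPM in BN-P18 (-4.50 ± 0.54, edgeR adjusted p = 0.000266). Cyp2d3 had 8.57, 6.28 and 6.01 CPM in CD-P18 and 1.29, 0.365 and 0.957 CPM in BN-P18 (-3.02 ± 0.33). The carboxylesterase Ces1c had 606, 578 and 586 CPM in CD-P18 and 259, 198 and 188 CPM in BN-P18 (-1.46 ± 0.14, edgeR adjusted p = 3.13e-05). The flavin monooxygenases Fmo2 (-1.40) and Fmo4 (-0.41) were lower, and so was Cyp7b1, an oxysterol hydroxylase (-0.92). Aldh1a1, which makes retinoic acid, and the aldo-keto reductase Akr1b8 were the 2 higher members (0.65 and 1.28).

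The 23 phase II genes, which conjugate substrates, split evenly, with 6 higher, 7 lower and 10 not called. That is 56.5% called, beside 40.4% over genes with a symbol. Gstm1, a glutathione transferase, rose from 14.8, 15 and 21.4 CPM in CD-P18 to 55.4, 66.5 and 77.2 CPM in BN-P18 (1.96 ± 0.16, edgeR adjusted p = 9.32e-06). Gsta6, Gsta3 and Gstt3 were also higher, by 0.79, 0.75 and 0.33, whereas Gsta1 was lower (-0.85). The sulfotransferases Sult1b1, Sult1c2 and Sult1c2a were lower, at -2.75, -1.52 and -0.78. Thus 4 of the 5 called genes of the Gst families were higher and all 3 called sulfotransferases were lower. Over all genes with a symbol, 604 were called higher and 579 lower. Hpgds, a prostaglandin D synthase related to glutathione transferases, was at 2.31, 2.87 and 2.96 CPM in CD-P18 and 0, 0.182 and 0.425 CPM in BN-P18. The glucuronosyltransferase Ugt2b1 had 0, 0 and 2 reads in CD-P18 against 36, 38 and 47 in BN-P18.

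**Figure D2:**
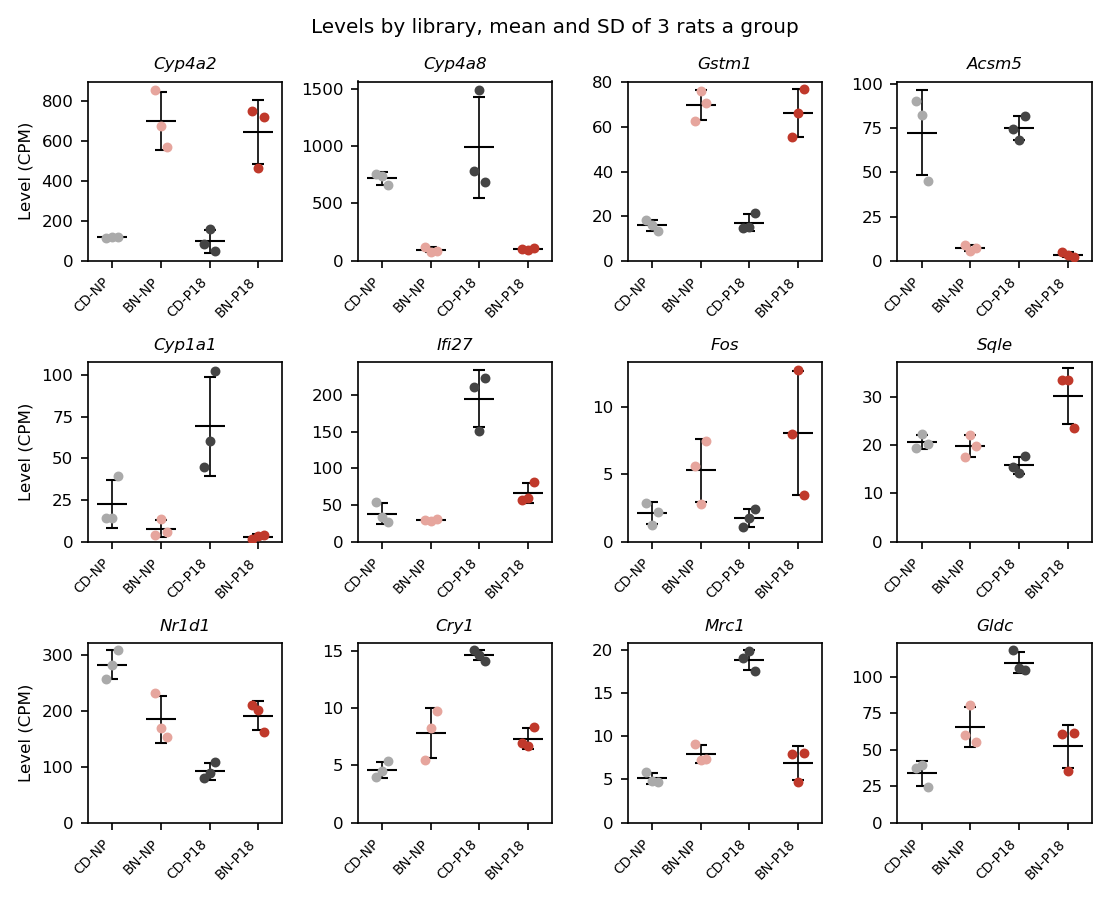
The plot of levels by library shows 12 genes in CPM (axes from 0) for the 4 groups, with 1 point per rat and bars for the mean and SD of 3 rats. Cyp4a2, Cyp4a8, Gstm1 and Acsm5 separate the strains at both stages, whereas Nr1d1, Cry1, Mrc1 and Gldc separate them in opposite orders at NP and P18.

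Class I histocompatibility genes moved in both directions. Of 19 with a symbol, 5 were higher in BN-P18, 8 were lower and 6 were not called (68.4% called, beside 40.4% over genes with a symbol). RT1-A1, a classical class I gene that presents peptides to T cells, had 82, 22.9 and 29.9 CPM in CD-P18 and 189.6, 192 and 250.3 CPM in BN-P18 (2.21 ± 0.43, edgeR adjusted p = 0.00738); CD-P18 replicate 1 was well above the other two of its stock. RT1-CE15 rose from 4.03, 6.61 and 5.2 to 28.7, 26 and 28.6 CPM (2.41 ± 0.29, edgeR adjusted p = 0.000228). RT1-N2 fell from 33.5, 36 and 24.5 to 3.65, 4.65 and 5 CPM (-2.82 ± 0.52, edgeR adjusted p = 0.00491), and RT1-CE7 from 39.9, 33.8 and 52.4 to 16.7, 16.7 and 17 CPM (-1.32 ± 0.14, edgeR adjusted p = 0.000125). RT1-T24-1, RT1-T24-3, RT1-T24-4, RT1-CE4, RT1-CE5 and RT1-CE10 were lower, at -2.60, -1.92, -0.68, -0.72, -1.62 and -0.77. RT1-S3 and RT1-N3 were higher by 0.61 and 0.54, and RT1-CE12 had 1, 3 and 0 reads in CD-P18 against 16, 6 and 16 in BN-P18. These genes are near-identical copies and the table counts only reads placed uniquely, so single values are uncertain. The class II gene RT1-Bb was higher in BN-P18 (1.39 ± 0.33) and RT1-DOb lower (-1.99 ± 0.40).

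Immediate early genes are transcribed within minutes of a stimulus and include the AP-1 subunits of the FOS and JUN families. In the 17 with a symbol, 10 were higher in BN-P18, none was lower and 7 were not called, with a median log2 fold change of 0.815. Over all genes with a symbol 20.6% were higher and 19.8% lower. Fos had 1.11, 1.76 and 2.45 CPM in CD-P18 and 8.05, 12.8 and 3.51 CPM in BN-P18 (2.21 ± 0.48, edgeR adjusted p = 0.0137). Egr2, a zinc finger factor, had 0.771, 0.771 and 1.32 CPM and 8.7, 7.75 and 1.38 CPM in the same order (2.63 ± 0.59, edgeR adjusted p = 0.0155). BN-P18 replicate 3 was lowest of its strain for both and only slightly above the CD range for Egr2. Btg2, an antiproliferative gene, was even over the rats, with 26.3, 26.1 and 24.5 CPM in CD-P18 and 49.5, 47.6 and 41.7 CPM in BN-P18 (0.85 ± 0.11, edgeR adjusted p = 0.000495).

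The stress factor Atf3 (1.55), Ier2 (0.81), Maff (1.16), Gadd45b (0.84), Junb (0.76), the orphan receptor Nr4a3 (1.53) and Fosb (1.88) were the other higher members. Jun (0.04 ± 0.13) and Myc (0.10 ± 0.17) were not called. Nr4a3 and Fosb overlapped between strains through BN-P18 replicate 3. The count of higher members was 7 to 12 when each library was left out in turn, and 12 without BN-P18 replicate 3. In NP rats 2 members, Btg2 and Myc, were higher in BN, where 16.4% of genes with a symbol were higher and 19.4% lower. None of the 17 passed the test of a difference between stages (0.943% of tested genes and 4.44% of those with a symbol did), so a stage effect on the group was not shown.

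The promoters of called immediate early genes were searched for the cyclic AMP response element, the palindrome TGACGTCA, since CREB binds it upstream of several such genes. Promoter windows (RefSeq, build GRCr8) run from 250 bases before to 50 after a gene start, and 7 of the 10 called members had one. The element was found in 3 of these 7, against 2.0% of 27457 genes. The windows come from a single reference genome and only called members were counted, so these matches do not bear on the strain difference. The 3 matches follow with the element in capitals.
Ier2 (chr19:40399296-40399325, plus strand): tggcgtttcagTGACGTCActcttactcta
Btg2 (chr13:48087873-48087902, minus strand): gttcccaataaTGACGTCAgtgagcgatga
Maff (chr7:112792725-112792754, plus strand): cgctggggcggTGACGTCActgcatgactg

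Most genes of the cholesterol list were higher in BN-P18. The pathway is driven by SREBP2, whose gene Srebf2 is itself a target, and oxysterols drive the efflux pumps in the opposite sense. Of 14 genes with a symbol, 9 were higher in BN-P18, 2 were lower and 3 were not called, and the median log2 fold change was 0.561. The shares over all genes with a symbol were 20.6% higher and 19.8% lower. Idi1, an isomerase of the isoprenoid steps, had 18.3, 11.8 and 14.8 CPM in CD-P18 and 38.8, 52.4 and 25.3 CPM in BN-P18 (1.37 ± 0.23, edgeR adjusted p = 0.00241). Sqle, the squalene epoxidase, rose from 15.5, 14.2 and 17.7 to 33.6, 33.6 and 23.5 CPM (0.93 ± 0.14, edgeR adjusted p = 0.00144).

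Hsd17b7, a ketosteroid reductase of the later steps, had 6, 5.29 and 5.3 CPM in CD-P18 and 13.1, 12.6 and 10.8 CPM in BN-P18 (1.13 ± 0.17, edgeR adjusted p = 0.00111). Cyp51, Hmgcs1 and Msmo1 were higher by 0.90, 0.90 and 0.68, and Srebf2 by 0.35. The 2 lower members were the efflux pumps Abca1 (90.6, 94.1 and 88.4 CPM in CD-P18, 51.6, 56.1 and 50.5 CPM in BN-P18, -0.79 ± 0.08) and Abcg1 (-0.94 ± 0.21). In all 11 called genes the strains did not overlap. The same held for 1296 of all 1365 DEGs, so it follows largely from the call. Over genes with a symbol, called or not, the share was 60.6%. BN-P18 replicate 3 had the lowest value of its strain for all 9 higher members, and for 8 of the 10 called immediate early genes. Higher members numbered 10 without that library and 6 without BN-P18 replicate 2.

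None of the 9 higher members was called higher in BN in the NP rats, where Sqle was -0.06 ± 0.15 and Idi1 0.02 ± 0.23. Members that passed the test of the difference between stages included Cyp51 (1.08 ± 0.22, edgeR adjusted p = 0.0499), Sqle (0.998 ± 0.21, edgeR adjusted p = 0.0555), Hmgcs1 (1.23 ± 0.28, edgeR adjusted p = 0.0897) and Idi1 (1.35 ± 0.32, edgeR adjusted p = 0.0994). With 19 other settings of the analysis, Cyp51 passed under 14, Sqle under 13, and Hmgcs1 and Idi1 under 8 each. The efflux pumps were lower in BN at both stages, Abca1 at -0.47 and Abcg1 at -0.77 at NP. The letters TCACCCCAC of the sterol regulatory element were in none of the 7 promoter windows of called members (0.532% of all genes).

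**Figure D3:**
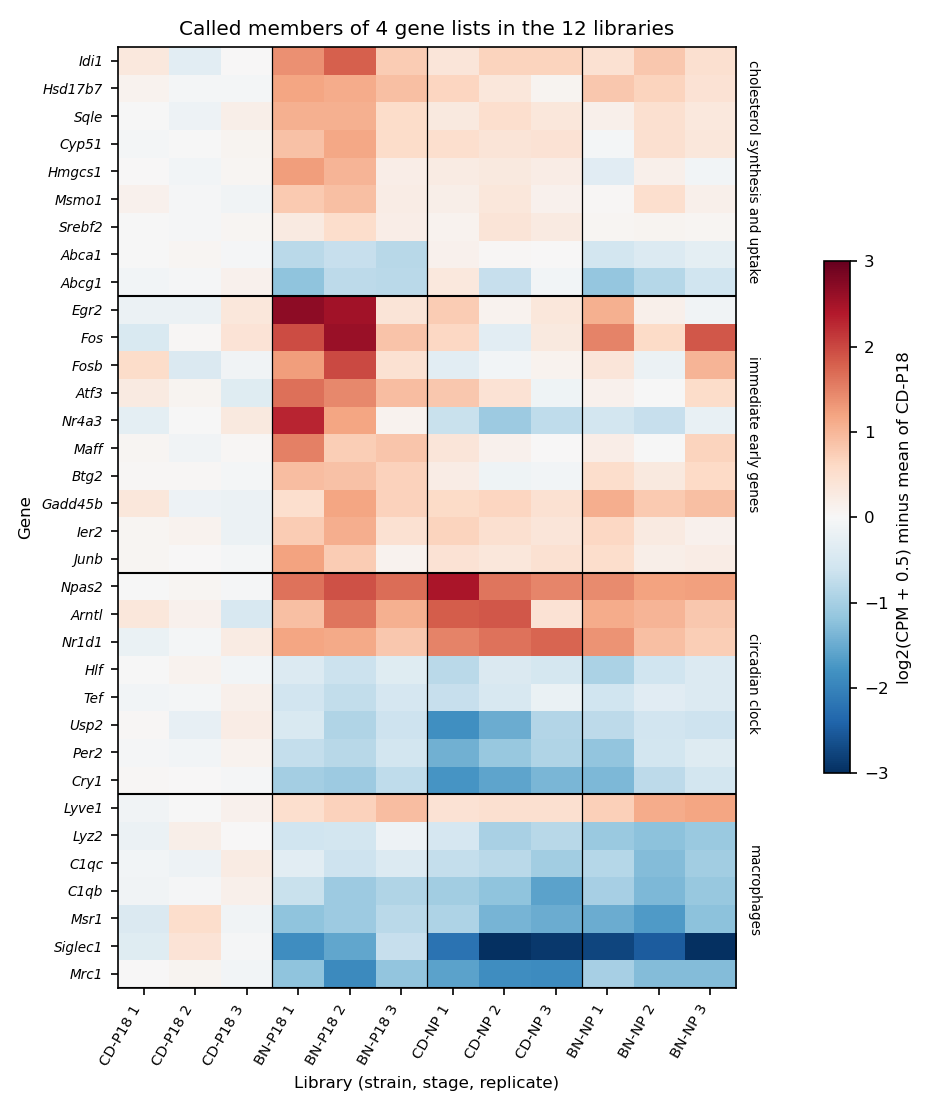
The heat map shows log2(CPM + 0.5) minus the mean of the 3 CD-P18 libraries for called members of 4 gene lists in all 12 libraries, with red above and blue below that mean. BN-P18 is red for most cholesterol and all immediate early genes, palest in BN-P18 replicate 3 for most of them, and blue for 6 of the 7 macrophage genes.

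Genes of the circadian clock differed in both directions, several with the opposite sign in the NP rats. The clock turns over each day through activators (Arntl and Npas2), which induce the repressors Per and Cry and the receptor Nr1d1, so its levels depend on the hour. Npas2 had 3.26, 3.42 and 3.16 CPM in CD-P18 and 11.2, 13.6 and 11.6 CPM in BN-P18 (1.89 ± 0.25, edgeR adjusted p = 0.000471), and Arntl 4.03, 3.42 and 2.04 and 6.12, 10.3 and 6.91 CPM (1.29 ± 0.37, edgeR adjusted p = 0.0491). Nr1d1, which represses Arntl, rose from 79.7, 87.9 and 109 to 209.7, 202 and 161 CPM (1.05 ± 0.16, edgeR adjusted p = 0.00104). Of 11 clock genes with a symbol 3 were higher in BN-P18, 5 were lower and 3 were not called. This is 72.7% called, beside 40.4% over genes with a symbol.

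Cry1 fell from 15.1, 14.7 and 14.2 CPM in CD-P18 to 6.98, 6.65 and 8.4 CPM in BN-P18 (-0.997 ± 0.19, edgeR adjusted p = 0.0055), and Per2 from 214, 207 and 235 to 134, 122 and 149 CPM (-0.70 ± 0.17, edgeR adjusted p = 0.0254). The output factors Tef and Hlf and the deubiquitinase Usp2 were lower, at -0.61, -0.47 and -0.66. In NP rats Npas2 was -0.66 ± 0.22 and Nr1d1 -0.61 ± 0.15, while Cry1 was 0.76 ± 0.21, all of the opposite sign. Npas2 was not called there (edgeR adjusted p = 0.102), and CD-NP replicate 1 had 20.1 CPM against 11.1 and 9.97 CPM in replicates 2 and 3. The difference between stages was 2.54 ± 0.33 for Npas2 (edgeR adjusted p = 0.00698), 1.66 ± 0.22 for Nr1d1 (edgeR adjusted p = 0.00698) and -1.76 ± 0.28 for Cry1 (edgeR adjusted p = 0.0204). Per2 (-1.18), Usp2 (-1.36) and Rora (-0.53), which was not called at P18, passed as well. Under 19 other settings of the analysis these 3 genes passed in 13, 13 and 12. The hour of tissue collection is not given in the sources used here and its part in these values was not tested. Lower members numbered 5 with all libraries, 3 without CD-P18 replicate 1 and 2 without BN-P18 replicate 2.

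The letters CACGTG of the E-box, which the activators bind, stood in the windows of 2 of 6 called clock genes that had one, against 7.08% of all genes. Here too the matches do not bear on the strain difference.
Nr1d1 (chr10:84229628-84229657, minus strand): tgtcagctcccaCACGTGtctggggatcct
Tef (chr7:115206617-115206646, plus strand): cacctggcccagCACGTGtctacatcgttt

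Of 12 macrophage genes with a symbol, 6 were lower in BN-P18, 1 was higher and 5 were not called (19.8% of genes with a symbol were lower). The lower members numbered 4 without CD-P18 replicate 3. Mrc1, the mannose receptor of resident macrophages, had 19.1, 19.8 and 17.6 CPM in CD-P18 and 7.94, 4.65 and 8.08 CPM in BN-P18 (-1.46 ± 0.18, edgeR adjusted p = 0.000344). Siglec1, a sialic acid receptor that interferon induces, fell from 10.7, 18.5 and 13.6 to 3.44, 4.38 and 8.4 CPM (-1.40 ± 0.33, edgeR adjusted p = 0.0198), and the scavenger receptor Msr1 was at -1.21 ± 0.29. C1qb and C1qc, chains of the first complement component, were lower, at -0.91 and -0.47, and lysozyme Lyz2 at -0.43, the latter with overlapping groups. C1qa (-0.12 ± 0.15), Csf1r (-0.22 ± 0.12) and Cd68 (-0.15 ± 0.15), which mark macrophages broadly, were not called. Lyve1, shared with lymphatic endothelium, was higher in BN-P18 (0.73 ± 0.14).

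Summed over the 12 macrophage genes, the level was 531.8 to 663.4 CPM in CD-P18 and 425.4 to 523.2 CPM in BN-P18, without overlap but with a narrow gap. In NP rats the sum was 336.0 to 423.6 CPM in CD and 303.4 to 323.8 CPM in BN. The strain difference of Mrc1 was reversed at NP (0.62 ± 0.20), and the difference between stages was -2.08 ± 0.27 (edgeR adjusted p = 0.00698). C1qb also passed that test (-1.02), but under only 7 of 19 other settings of the analysis. Among 7 complement genes with a symbol 3 were lower in BN-P18, of which C1qb and C1qc are in the macrophage list. The remaining one was C7 of the membrane attack complex, with 899.5, 772 and 784 CPM in CD-P18 and 568, 487 and 705 CPM in BN-P18 (-0.48 ± 0.15, edgeR adjusted p = 0.0625), and its strain difference was opposite at NP (0.54 ± 0.15). The part of the macrophage level in the complement values was not tested. Complement members called lower numbered 1 without CD-P18 replicate 1, CD-P18 replicate 3 or BN-P18 replicate 2.

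Interferon response genes are induced by viral RNA and type I interferon. Of 41 with a symbol 5 were higher in BN-P18, 4 were lower and 32 were not called (22.0% called, beside 40.4% over genes with a symbol). Ifi27 had 210.5, 150.3 and 223 CPM in CD-P18 and 57.3, 59.6 and 81.4 CPM in BN-P18 (-1.56 ± 0.21, edgeR adjusted p = 0.000573). Trim25 and Parp12 were lower, at -0.57 and -0.49. Herc6, Ifi44l, Ifit2, Rsad2 and Gbp2 were higher by 0.73, 0.66, 0.61, 0.58 and 0.57. The median of the list was -0.055. Both counts rested on single libraries, since 1 member was higher without CD-P18 replicate 1, and 1 was higher and 7 were lower without BN-P18 replicate 3. That library stood apart from its strain in the summed level of the list, with 2100 CPM against 1532 and 1514 CPM in the other two, where CD-P18 ranged from 1675 to 1990 CPM. Without single libraries, Gbp2 lost its call in 10 of 12 cases and Ifit2 in 6.

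Of 25 genes listed as markers of tubular injury, 9 had a symbol and were tested. Among these 9 members, 5 were higher in BN-P18 and none was lower, where 20.6% of genes with a symbol were higher. In NP rats 3 members were higher in BN and 1 was lower. The median log2 fold change of the list was 0.447 at NP and 0.424 at P18. No member passed the test of a difference between stages, so a stage effect on the list was not shown. Cd44, the hyaluronan receptor, had 14.7, 20.2 and 17.6 CPM in CD-P18 and 29.3, 37.3 and 37.6 CPM in BN-P18 (0.99 ± 0.18, edgeR adjusted p = 0.00455). Lcn2, the lipocalin NGAL, rose from 3.51, 2.31 and 3.98 to 6.33, 7.02 and 16.8 CPM (1.60 ± 0.35, edgeR adjusted p = 0.0132), with BN-P18 replicate 3 highest. Krt19, the cell cycle inhibitor Cdkn1a and Vim were higher by 1.23, 1.16 and 0.42. Havcr1, which encodes KIM-1 of the injured proximal tubule, was not called at P18 (0.17 ± 0.46) and was 1.41 ± 0.611 CPM in CD-P18 and 1.59 ± 0.561 CPM in BN-P18.

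Of 12 coagulation and fibrinolysis genes with a symbol, 3 were higher in BN-P18, 1 was lower and 8 were not called (33.3% called, beside 40.4% over genes with a symbol). Plat, the tissue plasminogen activator, had 51.2, 64.7 and 46.8 CPM in CD-P18 and 87.3, 89.4 and 114 CPM in BN-P18 (0.84 ± 0.15, edgeR adjusted p = 0.0047) and Proc, protein C, was lower (-0.64 ± 0.15). The bradykinin receptor Bdkrb2 rose from 2.23, 3.64 and 2.55 to 19.8, 8.57 and 10.6 CPM (2.22 ± 0.33, edgeR adjusted p = 0.00116).

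The renin-angiotensin and salt handling list had 2 higher, 3 lower and 10 not called of 15 members with a symbol (33.3% called, beside 40.4% over genes with a symbol). Slc12a3, the thiazide-sensitive cotransporter of the distal convoluted tubule, had 602, 642 and 635 CPM in CD-P18 and 852, 761 and 776 CPM in BN-P18 (0.35 ± 0.08, edgeR adjusted p = 0.0205), and Klhl3, an adaptor that controls its kinases, was higher by 0.45. Both lost their call without CD-P18 replicate 1 or without BN-P18 replicate 1, which left 0 higher members, and Klhl3 also without either of the other CD-P18 libraries. The epithelial sodium channel subunit Scnn1a was lower, with 166, 133 and 163 CPM in CD-P18 and 97.9, 91.5 and 99.4 CPM in BN-P18 (-0.68 ± 0.10, edgeR adjusted p = 0.000866). Both type 1 angiotensin receptors were lower, Agtr1a at -0.62 ± 0.14 and Agtr1b at -1.17 ± 0.22. The partner subunits Scnn1b (-0.12 ± 0.09) and Scnn1g (-0.27 ± 0.07) were not called, the latter for the size of its fold change. The ammonia channels Rhcg (-0.43) and Rhbg (-0.61) of intercalated cells were lower, as was Kcne1, a potassium channel subunit (-2.41 ± 0.40). In the collecting duct lists, 2 of 5 principal cell genes and 3 of 7 intercalated cell genes with a symbol were lower and none was higher. Over all genes with a symbol, 19.8% were lower. Dropping BN-P18 replicate 1 left 1 lower intercalated gene, and dropping replicate 2 gave 4. In NP rats 4 of the 5 principal cell genes and 6 of the 7 intercalated cell genes were lower in BN, and none was higher. No member of these lists passed the test of a difference between stages.

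Hormone and growth factor genes split, with the prolactin receptor Prlr higher in BN-P18 (16.9, 19.5 and 17.4 CPM in CD-P18, 34.6, 25.4 and 29.8 CPM in BN-P18, 0.74 ± 0.13, edgeR adjusted p = 0.00306). The growth hormone receptor Ghr (183, 184 and 174 CPM and 140.4, 120 and 115 CPM, -0.53 ± 0.09, edgeR adjusted p = 0.00231) and Igf1 (-0.69 ± 0.15) were lower. Ghr and Igf1 were -0.04 ± 0.09 and 0.05 ± 0.16 at NP, while Prlr was 0.64 ± 0.13. Neither Ghr nor Igf1 passed the test of a difference between stages, so a stage effect on them was not shown. Of 10 genes with a symbol in the hormone receptor list, 6 were not called (40.0% called, beside 40.4% over genes with a symbol).

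Among transporters, Slc22a13, a urate and nicotinate exchanger of the apical proximal tubule, rose from 47.2, 51.7 and 67.1 CPM in CD-P18 to 159.8, 149 and 118 CPM in BN-P18 (1.36 ± 0.18, edgeR adjusted p = 0.000471). Slco2a1, which takes up prostaglandins, and Slc17a3 were higher by 0.67 and 0.65, and the oxalate exchanger Slc26a1 and the peptide transporter Slc15a1 were lower (-0.59 and -0.58). The list had 4 higher, 4 lower and 7 not called members, beside 20.6% and 19.8% of genes with a symbol. Lower members numbered 0 without BN-P18 replicate 2, 1 without CD-P18 replicate 2, and 2 without replicate 1 or 3 of CD-P18 or replicate 3 of BN-P18. Slc5a2, the SGLT2 glucose transporter, was the single called member of the 8 in the proximal tubule list (-0.73 ± 0.15, edgeR adjusted p = 0.00832), of which 3 were lower without BN-P18 replicate 1. Glul, glutamine synthetase, was lower with 1468, 1402 and 1460 CPM in CD-P18 and 1137, 823 and 931 CPM in BN-P18 (-0.58 ± 0.11, edgeR adjusted p = 0.00489). Aldh6a1, of valine breakdown, was lower, at -0.49 ± 0.10 and Dnase1, a secreted nuclease, higher by 1.05 ± 0.15.

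None of the 6 podocyte genes with a symbol and none of the 7 endothelial genes was called, where 40.4% of genes with a symbol were. One endothelial gene was higher when CD-P18 replicate 2 or replicate 1 or 2 of BN-P18 was dropped. Nphs1 was 0.17 ± 0.15 and Flt1, the receptor VEGFR1, -0.15 ± 0.09. Podocyte genes summed to 638.3 to 721.4 CPM in CD-P18 and 729.3 to 822.9 CPM in BN-P18, so the sums did not overlap although no single gene was called. Markers of adrenal gland and fat could not be checked, because no member of those lists had a symbol here. Of 3 genes of the erythroid list with a symbol, 1 was lower in BN-P18 and 2 were not called, with a median log2 fold change of -0.338. Alas2, the haem synthesis enzyme of red cells, was 0.02 ± 0.25, and the anion exchanger Slc4a1, which intercalated cells also express, -0.34 ± 0.13. The 3 genes summed to 605.0 to 696.7 CPM in CD-P18 and 345.4 to 505.6 CPM in BN-P18, and to 552.7 to 655.3 CPM in CD-NP and 324.2 to 393.9 CPM in BN-NP, without overlap at either stage. The part of red cells or their precursors in other values was not tested.

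The remaining lists were mixed, and their counts cover only members with a symbol. These counts stand beside 20.6% of genes with a symbol higher and 19.8% lower. Among fatty acid oxidation genes 5 of 14 were higher and 2 lower, with Cidea, a lipid droplet protein, at 1.69. Vasoactive genes gave 4 higher and 3 lower of 11, acute phase genes 4 and 1 of 10, NF-kB targets 3 and 2 of 12, and oxidative stress genes 1 and 4 of 16. Several of these counts moved with single libraries. Fatty acid oxidation genes had 2 higher members when CD-P18 replicate 3 or replicate 1 or 2 of BN-P18 was dropped, and 3 without CD-P18 replicate 1 or BN-NP replicate 2, and acute phase genes had 2 without CD-P18 replicate 1 or CD-P18 replicate 3. Vasoactive genes had 1 lower member without CD-P18 replicate 2 or BN-P18 replicate 2, and NF-kB targets 1 when replicate 2 or 3 of either P18 group was dropped. Oxidative stress genes had 2 lower members without replicate 1 or 3 of CD-P18 or replicate 2 of BN-P18, and 2 higher without CD-P18 replicate 1 or CD-P18 replicate 2. The chemokine Ccl7 (2.97, called in 6 of 12 fits without 1 library), the retinol carrier Rbp4 (1.47) and transferrin, Tf (-1.14), were among those called. Extracellular matrix genes gave 2 higher and 1 lower of 16, and 1 to 3 higher when each library was left out. None of 2 loop of Henle and 2 T and NK cell genes was called, and of the angiogenic factors Flt4 was higher (0.42), though not called without CD-P18 replicate 1.

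**Figure D4:**
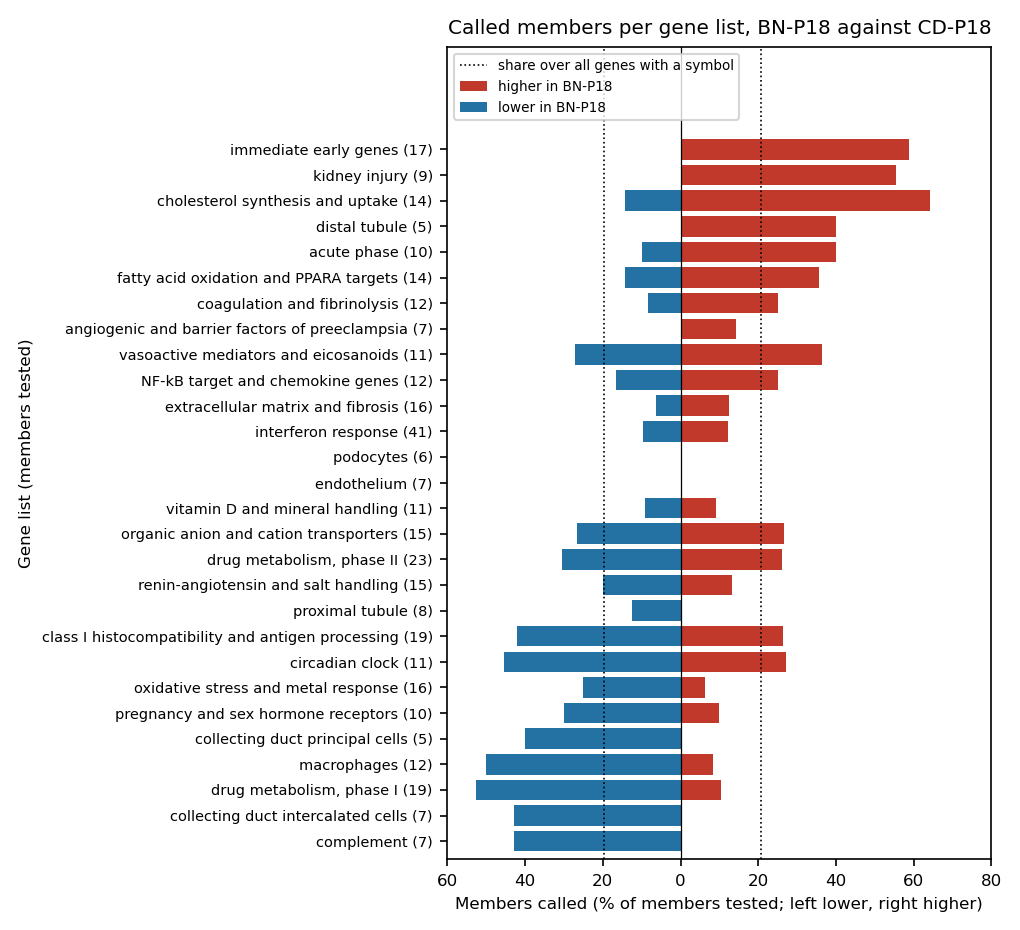
The bar plot gives, for each list with at least 5 tested members (number in parentheses), the percent called higher in BN-P18 (red, right) and lower (blue, left), with dotted lines at the shares over all genes with a symbol (20.6% and 19.8%). Immediate early, injury and cholesterol genes reach farthest to the right, and drug metabolism phase I and macrophage genes farthest to the left.

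The vitamin D list had 1 higher, 1 lower and 9 not called members (18.2% called, beside 40.4% over genes with a symbol). Cyp24a1, the catabolic 24-hydroxylase, had 119, 121 and 17.1 CPM in CD-P18 and 186, 165 and 141 CPM in BN-P18 (0.94 ± 0.60, edgeR adjusted p = 0.409), with CD-P18 replicate 3 far below the other two. Its strain difference was -3.32 ± 0.76 at NP, and the difference between stages passed its test (4.25 ± 0.97, edgeR adjusted p = 0.0878). That difference passed under only 8 of 19 other settings of the analysis. Cyp27b1, the activating hydroxylase, was under 1 CPM in all 6 P18 libraries, so no difference was detectable at this depth. Cyp2r1, the vitamin D 25-hydroxylase, was higher by 0.52 ± 0.13 and Slc34a2, a phosphate transporter, lower, at -0.96 ± 0.25. Cyp2r1 was not called without BN-P18 replicate 2, and Slc34a2 not without CD-P18 replicate 1 or BN-P18 replicate 3. Mt1, a metallothionein, was higher in BN-P18 (50.6, 35.1 and 29.7 CPM in CD-P18, 106, 59.4 and 83.3 CPM in BN-P18, 1.10 ± 0.21, edgeR adjusted p = 0.00713). Mmp9, a gelatinase, was lower (10.3, 20.1 and 8.05 and 2.58, 0.912 and 2.66 CPM, -2.66 ± 0.42, edgeR adjusted p = 0.0018), and Oas1a was -0.23 ± 0.30 and not called.

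Some DEGs lay next to each other. In the RefSeq gene order, 1143 DEGs with a symbol could be placed, and 433 of them fell in 185 runs in which successive DEGs were at most 3 protein-coding genes apart. Of 248 successive pairs in these runs, 147 had the same direction, and 14 runs held 4 or more DEGs. The counts to be found for genes placed at random were not worked out, so these counts do not show clustering. Fmo4, Fmo2 and Mroh9 (-3.29) lay in 1 run and were lower in BN-P18. The run of Ak4, Dnajc6, Leprot and the leptin receptor Lepr was also wholly lower (-1.03, -0.76, -0.34 and -0.78). Acot4, Acot3 and Acot5, acyl-CoA thioesterases, were higher (0.60, 0.98 and 2.76) beside Dnal1, which was lower (-0.46). Both runs of 6 consisted of RT1 class I genes. Gene families copied in tandem share sequence, which leaves the split of reads among them uncertain.

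A part of the P18 pattern was present without pregnancy. In the separate NP rats, 1191 genes were DEGs (8.38%, with 3.83% higher and 4.55% lower in BN), and 453 genes were DEGs in the same direction at both stages, which is 33.2% of the P18 list and 38.0% of the NP list. Of the 697 genes higher in BN-P18, 28.3% were also higher at NP, and of the 668 lower genes 38.3% were also lower. Another 20 DEGs were called in opposite directions. Among the 1365 P18 DEGs 1128 had the same sign at NP (82.6%, against 59.2% of the other tested genes), and the correlation of their log2 fold changes was 0.857 across genes, which are not independent replicates. Shared calls rose with the size of the difference, to 103 of 147 P18 DEGs of fold over 4 (70.1%), against 256 of 958 under 2 (26.7%).

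The strain difference itself differed between stages for 79 of the 1365 DEGs by edgeR's test of the interaction (adjusted p under 0.1), of 134 such genes (0.943% of tested genes). In 63 of the 79 the signs at P18 and NP were opposite, but 58 of the 79 were not called at NP. For those 58, a strain difference at NP was not shown. The count of 79 was sensitive to single libraries and lay between 31 (without BN-P18 replicate 2) and 130 (without CD-NP replicate 1). For the 834 P18 DEGs that were not called at NP and did not pass this test, a difference between stages was not shown. Fmo2 had the smallest p, with 224 to 251 CPM in CD-P18, 65.9 to 101 in BN-P18, 79.4 to 86.4 in CD-NP and 100.2 to 129 in BN-NP (-1.87 ± 0.19, edgeR adjusted p = 0.00254). Gramd1b, a sterol transfer protein, and Steap4, a metalloreductase, also differed in the negative direction (-1.37 and -1.24), and Ggct in the positive direction (1.29). Odc1, the rate-limiting enzyme of polyamine synthesis, was lower in BN-P18 (-1.21) but 0.40 at NP, Gldc, which breaks down glycine, was -1.07 and 0.94, and Tsc22d3, a glucocorticoid target, -0.57 and 0.98. Col24a1, a fibrillar collagen, was lower in BN at both stages, but less so at P18 (-0.78 against -1.70).

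**Figure D5:**
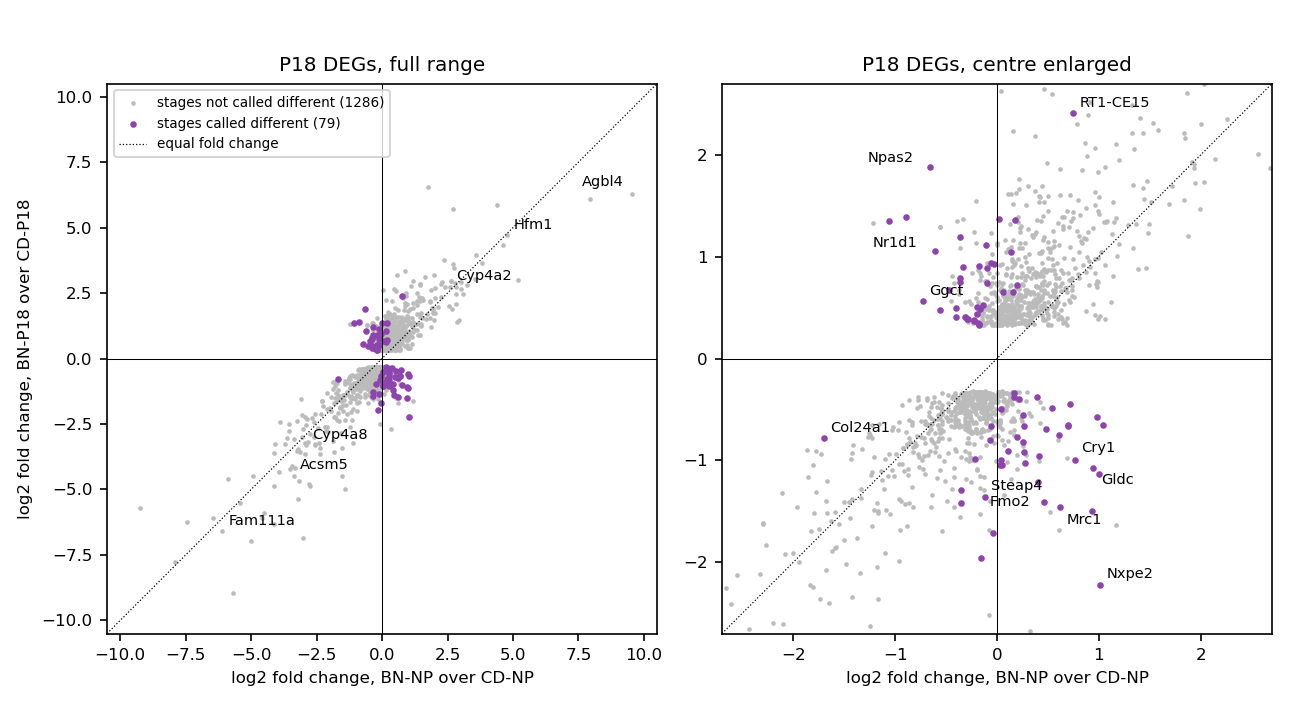
Both panels plot the log2 fold change of BN over CD at P18 (y axis) against that at NP (x axis) for the 1365 P18 DEGs, over the full range and enlarged at the centre, with the 79 genes whose stages were called different in purple. Large differences lie mostly near the dotted line of equal change, and the purple genes lie mostly where the signs are opposite. Of the 79 purple genes, 58 were not called at NP.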

How the data were processed

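Kidney RNA of 12 rats was sequenced as stranded total RNA after depletion of ribosomal RNA, and the libraries were grouped by the strain, stage and replicate number in their labels. The labels give each library as a separate rat. According to the submitters' processing notes, reads were trimmed with Trimmomatic, aligned to Rnor_6.0 with STAR 2.5.2 and counted with HTSeq 0.6.1, and the notes also list edgeR 3.26.8. The authors deposited raw read counts per gene. The use of strand in counting and the annotation release are not given in the sources used here. HTSeq summary lines held 72.47 to 75.6% of the entries per library and were removed. In P18 libraries, alignments to several places made up 42.89 to 45.36% of entries in CD and 43.48 to 44.1% in BN, and entries without a feature 28.43 to 29.59% and 29.91 to 30.07%. Rnor_6.0 was built from a Brown Norway rat, and its part in single genes was not tested.

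Genes were filtered with filterByExpr, scaled by TMM and tested with edgeR 4.0.16 in R 4.3.3, by quasi-likelihood over all 12 libraries and 4 groups without covariates. P-values were adjusted by Benjamini-Hochberg over all 14212 genes, and DEGs had adjusted p below 0.1 and a log2 fold change past 0.32. The standard error of a log2 fold change (±) is its size over the root of its F. Values are CPM over the library total times its TMM factor, and folds are BN over CD. Counts of genes that reached 1 CPM used the library total alone. A library with up to 3 reads was taken as at the floor.

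The files give gene identifiers only. Symbols were paired by matching fold changes and means to those of the genes in a supplementary table of the study, within 0.003, which paired 3042 of 3064 symbols (99.282%). Of 1239 symbols that could be paired in more than 1 comparison, 0 conflicted, and a control with signs turned paired 39. That table lists genes that changed in some comparison, so genes with a symbol are enriched for DEGs. No fold change or p of the table is reported.

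The gene lists and named genes were chosen with earlier results of these data known. Every list count covers only members with a symbol that were tested, such as 9 of 25 kidney injury genes and 14 of 42 fatty acid oxidation genes. Members without a symbol were left out, and symbols came from genes that changed in some comparison. Named genes were the largest, most significant and most abundant DEGs, the leading DEGs of each list, those with the strongest difference between stages and the genes measured by PCR. Genes outside that rule were chosen after their values were seen. DESeq2 1.42.0, other scalings, filters and thresholds, and leaving out each library were tried. On simulated counts for BN-P18 against CD-P18 (14212 genes), the test recovered 58.2% of 67 genes changed 1.5-fold, 83.6% of 67 changed 2-fold and 97% of 66 changed 4-fold, and 21 of 180 called genes (11.7%) were unchanged. The changed genes were drawn only from genes above a minimum mean count, and all other genes were left unchanged. These shares therefore do not carry over to genes of low count or to the DEGs of the data. The 12 RRBS libraries were not used here. Some genes are not reported here by name, though they are part of the counts and sums.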

Additional observations from a re-analysis of the deposited data

Results flagged for a closer look

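Among the named genes reported here, 32 had a strain difference that itself differed between P18 and NP by edgeR's test of the interaction (adjusted p under 0.1). Each value below is the log2 fold change of BN over CD at P18 minus that at NP, from 3 rats a group. With 19 other settings tried, 15 of these genes passed under all of them.

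Those 15 were Ak4 (-1.30), Alpl (-1.08), Col24a1 (0.92), Cry1 (-1.76), Fmo2 (-1.87), Ggct (1.29), Gldc (-2.01), Gramd1b (-1.37), Mrc1 (-2.08), Npas2 (2.54), Nr1d1 (1.66), Odc1 (-1.61), Scube3 (0.90), Steap4 (-1.24) and Tsc22d3 (-1.55).

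The others passed under 7 to 14 of the 19 settings. Where the signed log2 fold change of BN over CD was higher at P18 than at NP, these were Aldh1a1 (0.60), Cyp24a1 (4.25), Cyp51 (1.08), Dnase1 (0.91), Gsta3 (1.12), Gstt3 (0.51), Hmgcs1 (1.23), Idi1 (1.35), RT1-CE15 (1.66), Slc12a3 (0.54), Slc22a13 (1.18) and Sqle (0.998). Where it was lower at P18 they were C1qb (-1.02), C7 (-1.02), Per2 (-1.18), Rora (-0.53) and Usp2 (-1.36).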

How the results depend on the processing

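The 1365 DEGs numbered 1366 with DESeq2's size factors in edgeR (RLE), 1379 with upper-quartile scaling, 1614 without a filter, 1165 with at least 1 CPM in all 12 libraries, 1334 with DESeq2 and 1322 from the 6 P18 libraries alone. Under an adjusted p of 0.05 and a fold change over 1.5 there were 616 DEGs (310 higher, 306 lower), 220 also DEGs at NP and 30 that differed between stages. The 79 P18 DEGs that differed between stages became 187 without a filter and 170 with DESeq2. Leaving out each library gave 963 to 1460 DEGs, 472 to 756 higher, 466 to 704 lower, 322 to 459 also DEGs at NP and 31 to 130 that differed between stages. The last count rose to 130 when CD-NP replicate 1 was dropped. It fell to 39 for CD-NP replicate 2, 44 for CD-P18 replicate 1, 47 for BN-NP replicate 1, 39 for BN-NP replicate 2 and 31 for BN-P18 replicate 2. The cause was not tested. Correlations of same-numbered P18 samples were 0.0628, -0.111 and -0.0478. They were taken on deviations from means of small groups, so they cannot decide whether replicate numbers pair the samples. A fit with the replicate block gave 1414 DEGs (720 higher, 694 lower), 495 also DEGs at NP and 134 that differed between stages. Of 185 named genes that were DEGs, 128 kept their call whichever library was left out and 130 under each other setting that gave a value, and 0 changed direction. Ptpre and Gbp2 lost the call in 10 of the 12 fits without 1 library, Tgfb2 in 9, Acot4 in 8, and Ccl7 and Ifit2 in 6. At 8867274 to 11879451 reads a P18 library, genes at a few reads, such as Cyp27b1, cannot be compared.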
